A study of Mus musculus with 8 samples.

Results

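The Fc gamma receptors are the surface proteins with which a macrophage recognises IgG bound to a target. The genes followed here were the activating receptors Fcgr1, Fcgr3 and Fcgr4, the inhibitory receptor Fcgr2b, the signalling chain Fcer1g, the kinase Syk and the neonatal Fc receptor Fcgrt. They were chosen by name, with earlier results of these data known. All 7 were found among the 55357 genes of the table and had enough counts to be among the 14514 tested. Bone marrow-derived macrophages (BMDM) were grown from femur and tibia marrow of C57BL/6J wild-type mice for several days with 10 ng/ml M-CSF, the growth factor that drives marrow cells to this fate. The 4 So(d18:1) cultures received 2 μM sphingosine d18:1 in methanol for 6 h, and the 4 Control cultures received methanol for the same time. An inflammatory stimulus is described for these cells in the study's text and is absent from the sample labels. The study calls the 4 samples of a group biologically independent, and the labels name no animals, so the p-values measure the spread between these samples.

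IgG complexes cluster the activating receptors, which carry no signalling motif of their own for this purpose and depend on the Fcer1g chain. Src family kinases then phosphorylate the tyrosine motif of the chain, Syk docks on it, and engulfment, the oxidative burst and cytokine production follow. Fcgr2b carries an inhibitory tyrosine motif that recruits phosphatases such as SHIP1 (Inpp5d), so the balance of activating to inhibitory receptors is commonly used to describe how readily a macrophage responds to immune complexes. Fcgrt works differently, in endosomes, where it binds IgG at acid pH together with beta 2-microglobulin and returns it to the surface.

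Of the 7 genes, 2 passed an adjusted p of 0.05. Fcgr3 rose by 31.5% with So(d18:1) and Fcgrt fell by 11.4%. The other 5 genes, Fcgr1, Fcgr4, Fcgr2b, Fcer1g and Syk, did not pass. The fitted log2 fold change was above 0 in 3 of the 7 (Fcgr3, Syk and Fcgr4, the last at 0.002 and with a sign that changed with the scaling) and in 50.9% of all genes. Over all genes tested, 8.94% passed in either direction, 3.87% upward and 5.07% downward (edgeR's quasi-likelihood test with Benjamini-Hochberg adjustment, as for every adjusted p below). Levels are given as CPM, the usual unit for the count of a gene relative to the scaled total count of its library. Changes are given as log2 fold changes of So(d18:1) over Control, and their 95% intervals are those of a single gene, not adjusted for the number of genes.

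Total counts lay between 17748397 and 26088609 per library, and the members were counted between 1379 and 34714 times per library. The median log2 fold change of all genes tested was 0.0036. The macrophage markers Adgre1, Csf1r, Cd68, Mertk, Itgam, Cd14, Lyz2 and Fcgr1 summed to between 26524 and 32994 CPM over the 8 libraries. Markers of T or NK cells summed to at most 0.289 CPM, of erythroid cells to at most 1.09 CPM, of stroma to at most 9.02 CPM, of dendritic cells to at most 28.5 CPM and of mast cells or basophils to at most 6.40 CPM, where Mcpt4 and Tpsb2 were at 0 in all libraries. Neutrophil markers summed to between 1599 and 2699 CPM, monocyte markers to between 1192 and 1573 CPM and B cell markers to at most 19.4 CPM. These 3 lists are given by group further below. In bulk RNA, fewer cells of a type and less RNA per cell cannot be told apart.

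**Figure D1:**
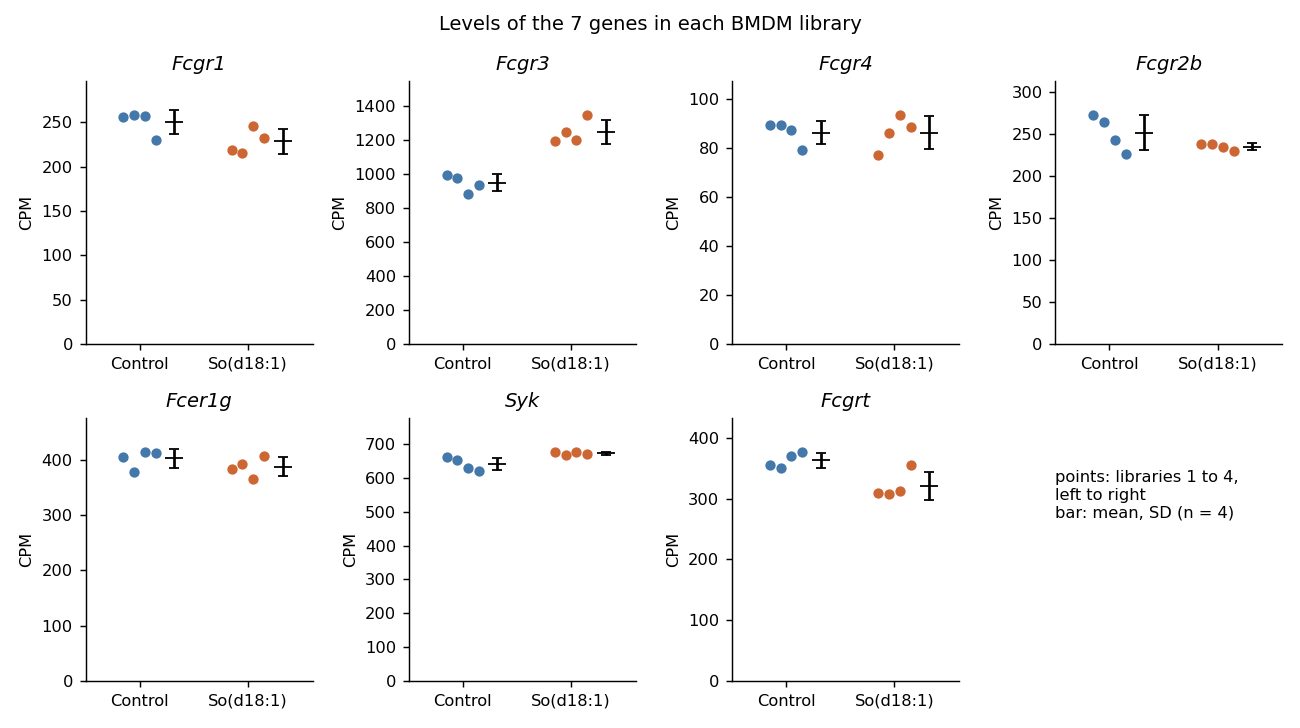
CPM of the 7 genes (y axes, each from 0) in the 4 Control and the 4 So(d18:1) libraries, with a point per library and a bar for the mean and SD of each group. The Fcgr3 points of So(d18:1), from 1198 CPM, all lie above the Control points, which end at 998 CPM, while the groups of Fcgr4 overlap.

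Fcgr3 encodes a low-affinity activating receptor that binds IgG in complexes, and it was the most abundant receptor of the set. It (ENSMUSG00000059498) lies on the minus strand of chromosome 1 from 171051174 to 171064935 (GRCm38, the build called mm10). Its level was 998, 979, 886 and 937 CPM in Control replicates 1 to 4 and 1198, 1250.5, 1203 and 1347 CPM in So(d18:1) replicates 1 to 4. Each So(d18:1) library was above each Control library. The mean rose from 950.0 ± 50.1 to 1249.6 ± 69.2 CPM (± SD, 4 libraries per group), or a log2 fold change of 0.40 (SE 0.049, 95% interval 0.29 to 0.50, adjusted p = 1.37e-05, edgeR). It stood at rank 81 of 14514 genes by p. Without any single library the log2 fold change of Fcgr3 lay between 0.36 and 0.42. The rise of 1.32-fold is under the 1.5-fold limit of the study's methods, by which none of the 7 genes counted as changed and 3.89% of all genes tested did.

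Fcgr1 encodes the high-affinity receptor, which also binds single IgG molecules and is used as a marker of macrophages. It (ENSMUSG00000015947) lies on the minus strand of chromosome 3 from 96282909 to 96293969. Its level was 256, 258, 257 and 229.9 CPM in Control replicates 1 to 4 and 219, 216, 246 and 233 CPM in So(d18:1) replicates 1 to 4. All 4 So(d18:1) libraries were under the Control mean, but Control replicate 4 fell inside their range. The means were 250.1 ± 13.5 and 228 ± 14.0 CPM (± SD, 4 libraries per group), with a log2 fold change of -0.13 (SE 0.050, 95% interval -0.24 to -0.03). It did not pass (adjusted p = 0.108, edgeR). Before adjustment, p was under 0.05 for 3 of the 7 genes, Fcgr1, Fcgr3 and Fcgrt, and for 23.4% of all genes tested.

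Fcgr4 encodes an activating receptor of intermediate affinity found on monocytes, macrophages and neutrophils. It (ENSMUSG00000059089) lies on the plus strand of chromosome 1 from 171018920 to 171029761. Its level was 89.3, 89.3, 87.6 and 79.4 CPM in Control replicates 1 to 4 and 77.3, 86.1, 93.4 and 88.8 CPM in So(d18:1) replicates 1 to 4. The Control range lay within the wider So(d18:1) range, and both means were 86.4 CPM (SD 4.76 in Control and 6.75 in So(d18:1), n = 4 each). The 95% interval of its log2 fold change ran from -0.12 to 0.12 (adjusted p = 0.991, edgeR), and the sign of this value changed with the scaling, between -0.011 and 0.008. A change of the size seen in Fcgr3 lies outside that interval.

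The inhibitory receptor Fcgr2b (ENSMUSG00000026656) lies on the minus strand of chromosome 1 from 170958617 to 170976547. Its level was 272, 264, 243 and 227 CPM in Control replicates 1 to 4 and 237, 237, 234 and 229 CPM in So(d18:1) replicates 1 to 4. The So(d18:1) libraries lay close together within the wider Control range, at 234.5 ± 4.02 against 251 ± 20.6 CPM (± SD, 4 libraries per group). The log2 fold change was -0.10 (SE 0.051, 95% interval -0.21 to 0.01, adjusted p = 0.240, edgeR). It was -0.058 without Control replicate 1 and -0.146 without Control replicate 4, the ends of the range with 1 library left out.

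**Figure D2:**
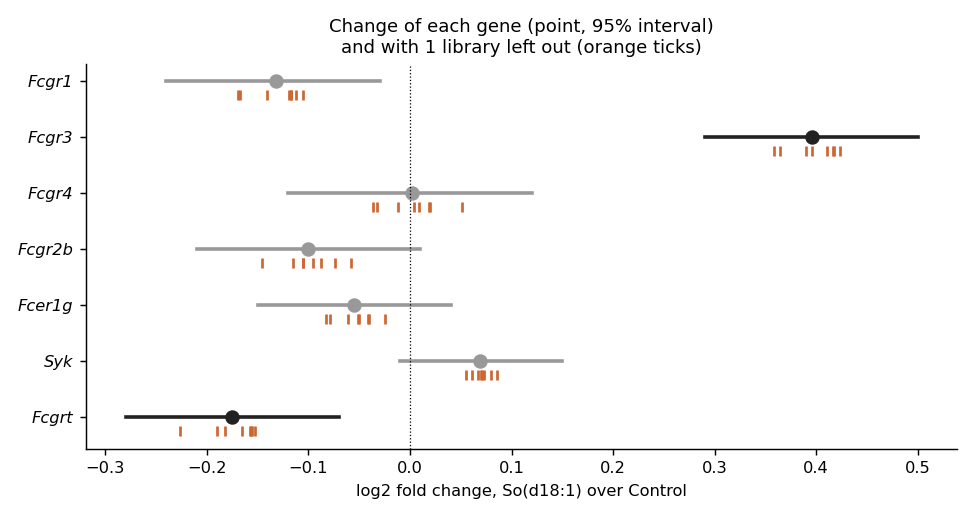
Log2 fold change of So(d18:1) over Control (x axis) for each of the 7 genes, with its 95% interval as a line, drawn black where the adjusted p was under 0.05, and the 8 values with 1 library left out as orange ticks. Fcgr3 stands apart at 0.40, with ticks from 0.36 to 0.42, and the ticks of Fcgr4 lie on both sides of 0.

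Fcgr2b and Fcgr3 descend from a common gene and share coding sequence, which bears on how reads are assigned between them. Of the 50-base words in Fcgr3 transcripts, 9.58% also occur in Fcgr2b, and no other gene shared any. For Fcgr2b, 2.92% of the words occur in Fcgr3 and 6.95% in any other gene. No 50-base word of Fcgr1, Fcgr4, Fcer1g, Syk or Fcgrt occurs in another gene. The longest identical run is shown because reads that fall within it could come from either gene. It holds 129 coding bases, 102 in exon 3 and 27 in exon 4 of both genes, at chr1:170967980-170968081 and chr1:170966674-170966700 in Fcgr2b and at chr1:171057691-171057792 and chr1:171054167-171054193 in Fcgr3 (GRCm38, minus strand, GENCODE transcripts).
Fcgr2b and Fcgr3 shared run: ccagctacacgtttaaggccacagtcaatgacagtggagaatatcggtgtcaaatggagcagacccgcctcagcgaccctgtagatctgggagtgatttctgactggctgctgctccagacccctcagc
How the authors' counting treated reads that match several places is not given in the sources used here, so the counts of this pair are uncertain by reads from all of the shared words, of which this run holds only a part. An exon of the antisense gene Gm38204 overlaps 155 bases of Fcgr2b (2.68% of its exons) and held 0 to 10 counts per library, with the strand setting of the counting also not given.

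The ratio of an activating receptor to Fcgr2b was taken per library from CPM per kb of exon. These ratios are built from the members and are given without a test. The ratio of Fcgr3 to Fcgr2b was 12.3, 12.4, 12.2 and 13.8 in Control replicates 1 to 4 and 16.8, 17.6, 17.1 and 19.6 in So(d18:1) replicates 1 to 4. The groups did not overlap, at 12.6 ± 0.77 and 17.8 ± 1.3 (± SD, 4 libraries per group). For Fcgr1 to Fcgr2b the values were 2.23 ± 0.11 and 2.18 ± 0.16, and for Fcgr4 to Fcgr2b 1.59 ± 0.064 and 1.70 ± 0.15 (± SD, 4 libraries per group), and both pairs of groups overlapped. Fcgr3 made up 72.4% ± 1.3 of the summed CPM per kb of the 4 receptors in Control and 78.5% ± 1.2 in So(d18:1) libraries, while Fcgr2b made up 5.74% ± 0.26 and 4.42% ± 0.26 (± SD, 4 libraries per group). The size of these ratios depends on the length taken for each gene. With the longest transcript in place of all annotated exons, a choice made after seeing the data, Fcgr4 to Fcgr2b was 0.972 ± 0.039 in Control and 1.04 ± 0.091 in So(d18:1) libraries, so that in Control it turned from above to below 1, and Fcgr1 to Fcgr2b was 1.36 ± 0.067 and 1.33 ± 0.096. Fcgr3 to Fcgr2b was then 9.97 ± 0.61 and 14.0 ± 1.0, again without overlap (± SD, 4 libraries per group), since a length scales both groups alike.

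**Figure D3:**
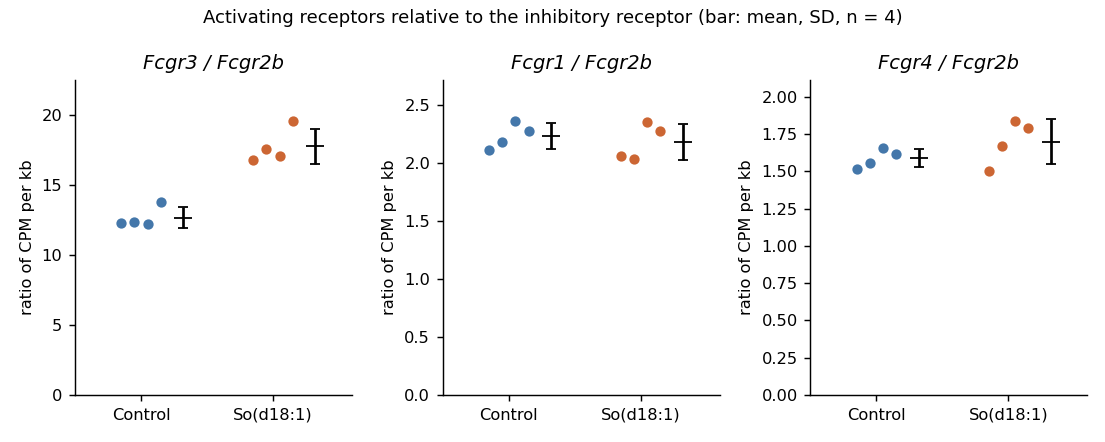
Ratio of CPM per kb of each activating receptor to that of the inhibitory receptor Fcgr2b (y axes, each from 0, with all annotated exons as gene length) by group, with a point per library and a bar for the mean and SD of 4 libraries. The ratio for Fcgr3 is 12.2 to 13.8 in Control and 16.8 to 19.6 in So(d18:1) libraries, and the other ratios overlap between the groups.

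Fcer1g encodes the common gamma chain that the activating receptors signal through. It (ENSMUSG00000058715) lies on the minus strand of chromosome 1 from 171229572 to 171234365. Its level was 405, 378, 414 and 413 CPM in Control replicates 1 to 4 and 384, 393, 366 and 407 CPM in So(d18:1) replicates 1 to 4. The groups overlapped, at 403 ± 16.8 and 388 ± 17.1 CPM (± SD, 4 libraries per group), with a log2 fold change of -0.06 (SE 0.045, 95% interval -0.15 to 0.04, adjusted p = 0.503, edgeR). It was -0.025 without So(d18:1) replicate 3 and -0.083 without Control replicate 2, the ends of the range with 1 library left out. Per kb, the chain amounted to 0.648 ± 0.052 of the summed activating receptors in Control and 0.506 ± 0.018 in So(d18:1) libraries (± SD, 4 libraries per group), without overlap between the groups. This ratio is again a description, and its numerator differed by less than its denominator.

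Syk, the kinase that docks on the phosphorylated chain (ENSMUSG00000021457), lies on the plus strand of chromosome 13 from 52583173 to 52648792. Its level was 660.4, 654, 629 and 621 CPM in Control replicates 1 to 4 and 676, 667, 676 and 671 CPM in So(d18:1) replicates 1 to 4. Each So(d18:1) library was above each Control library, but by little. The means were 641 ± 19.0 and 672.5 ± 4.33 CPM (± SD, 4 libraries per group), or a log2 fold change of 0.07 (SE 0.040, 95% interval -0.01 to 0.15) that did not pass (adjusted p = 0.317, edgeR). Groups without overlap were seen for 2 of the 7 genes, Fcgr3 and Syk, both higher, and for 15.0% of all genes tested, 7.14% higher and 7.87% lower.

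Fcgrt encodes the heavy chain of the neonatal Fc receptor (ENSMUSG00000003420) and lies on the minus strand of chromosome 7 from 45092990 to 45103851. Its level was 356, 351, 369.7 and 377 CPM in Control replicates 1 to 4 and 310.1, 308, 313 and 356 CPM in So(d18:1) replicates 1 to 4. Of the So(d18:1) libraries, 3 were under all Control libraries and replicate 4 lay within their range. The mean fell from 363 ± 12.1 to 322 ± 23.1 CPM (± SD, 4 libraries per group), or a log2 fold change of -0.17 (SE 0.049, 95% interval -0.28 to -0.07, adjusted p = 0.0282, edgeR). This call was lost in 5 of the 8 fits with 1 library left out, namely without Control replicate 3 (adjusted p = 0.0580) or 4 (0.0958) and without So(d18:1) replicate 1 (0.0874), 2 (0.109) or 3 (0.0787, edgeR), and without So(d18:1) replicate 4 the log2 fold change was -0.23 (adjusted p = 0.00213, edgeR). B2m, the light chain that pairs with Fcgrt and was picked after its values were seen, had 1612 ± 62.1 CPM without and 1610.2 ± 56.6 CPM with So(d18:1) (± SD, 4 libraries per group, adjusted p = 0.990, edgeR).

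Levels of different genes were compared only as CPM per kb of annotated exon. In Control libraries Fcgr3 was highest at 547 ± 28.9 CPM per kb, at rank 47 of the 14514 genes tested. Fcer1g followed at 461 ± 19.2, Fcgrt at 173 ± 5.74, Fcgr1 at 96.6 ± 5.20, Fcgr4 at 68.8 ± 3.79, Syk at 68.5 ± 2.03 and Fcgr2b at 43.4 ± 3.55 CPM per kb (± SD, 4 libraries per group). Over the 8 libraries, Fcgr4 and Syk overlapped, and every other neighbouring pair in this order did not. With the longest transcript as the length of each gene, 18 of the 21 pairs of genes kept their order. By the Control means, Syk then moved above Fcgr1, and Fcgr4 came last at 68.8 CPM per kb, under Fcgr2b at 70.9 CPM per kb. The ratio of Fcgr4 to Fcgr2b ran from 0.928 to 1.02 in Control and from 0.919 to 1.12 in So(d18:1) libraries. The order of this pair thus differed between libraries.

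The start regions of the 3 activating receptors are shown because a motif that the choice of genes did not use was found in each. They were set side by side after the search. PU.1, the transcription factor that sets the myeloid fate, binds the purine-rich letters GAGGAA, known as the PU-box. In windows of 250 bases before to 50 bases after the RefSeq start (GRCm38.p6), these letters were found on either strand for Fcgr1, Fcgr3 and Fcgr4 and not for Fcgr2b, Fcer1g, Syk or Fcgrt, so in 3 of the 7 genes, and in 31.3% of the 27025 genes with such a window. All 3 matches are on the strand opposite to the gene, so they read TTCCTC below, in capitals. The 100 bases before the start are printed, from chr3:96293970-96294069 (minus strand), chr1:171059404-171059503 (minus strand) and chr1:171018826-171018925 (plus strand). The RefSeq start of Fcgr3 differs from the GENCODE bounds given above, which end at 171064935. Its printed bases lie inside those bounds.
Fcgr1: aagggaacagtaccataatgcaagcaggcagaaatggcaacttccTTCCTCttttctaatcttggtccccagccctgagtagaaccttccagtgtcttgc
Fcgr3: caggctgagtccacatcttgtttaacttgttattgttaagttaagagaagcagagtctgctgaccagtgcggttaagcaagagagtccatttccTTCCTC
Fcgr4: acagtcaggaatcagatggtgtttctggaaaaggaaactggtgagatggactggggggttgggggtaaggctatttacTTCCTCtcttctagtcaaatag
The match begins 55 bases before the start in Fcgr1, 6 bases before it in Fcgr3 and 22 bases before it in Fcgr4. Fcgr1 and Fcgr3 share the 14-base run TTCCTTCCTCTTTT around it, which crosses the start in Fcgr3. This run was picked as the longest that any pair of the 7 windows shared. Among the 27025 genes, 2 held it on the strand of the gene, which are Fcgr1 and Fcgr3 themselves, and 4 on either strand. Other pairs of these 7 windows shared runs of at most 10 bases. These are matches of letters, not measured binding, and of the 3 genes with a PU-box 1 rose. The other motif searched for, TTCNNNGAA, was found for 1 of the 7 genes, Fcgr1, and in 9.55% of the 27025 genes.

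Fcgr2b, Fcgr4 and Fcgr3 lie side by side on chromosome 1 within 106 kb, and Fcer1g follows 165 kb beyond Fcgr3. Of this cluster Fcgr3 rose, while Fcgr4, which ends 21.4 kb from Fcgr3, had the same mean in both groups. Within 500 kb of the GENCODE start of Fcgr3, 30 genes besides the members were tested. Over all genes tested, 8.94% passed with edgeR's quasi-likelihood test and 23.4% had an unadjusted p under 0.05. Of these 30 genes, none passed with that test, DESeq2 or limma-voom, and 5 had an unadjusted p under 0.05. The exact and likelihood ratio tests of edgeR called 1, Fcrla, a B cell gene, with 0.885 ± 0.267 CPM in the Control group against 0.446 ± 0.0208 CPM in the So(d18:1) group (± SD, 4 libraries per group; adjusted p = 0.0655 by the quasi-likelihood test). The written list of chromosome 1 neighbours had 18 tested genes, of which 0 passed and 2 had an unadjusted p under 0.05, with Fcrla again the call of those other tests, and 1 was called without Control replicate 1.

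**Figure D4:**
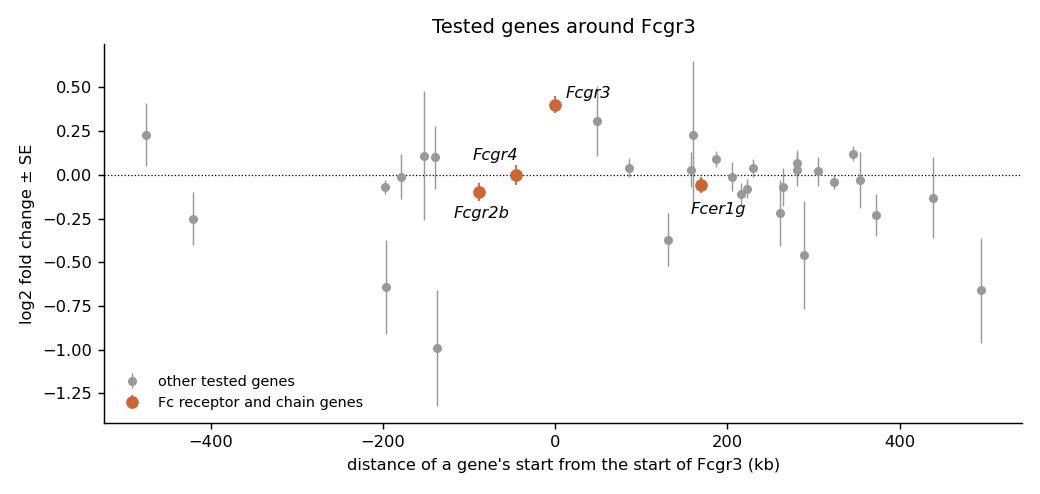
Log2 fold change with its SE (y axis) of the tested genes within 500 kb of Fcgr3, by the distance of their start from that of Fcgr3 in kb (x axis). Starts are those of GENCODE, and the members are in orange. Fcgr3 at 0.40 has an adjusted p under 0.05, and none of the 30 other genes in grey has one, although lowly counted genes such as Fcrla spread widely.

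The genes most like Fcgr3 by the Pearson correlation of log2 CPM over the 8 libraries included Btg1, an antiproliferative regulator (r = 0.990), and Tap2, a peptide transporter of antigen presentation (r = 0.987). Like Fcgr3, both had groups that did not overlap, So(d18:1) being higher, with log2 fold changes of 0.28 each (SE 0.044 and 0.053). After the group means were removed, r was 0.91 and 0.87. They were picked from the 3 highest of all genes tested, over libraries that share their depth and scaling, so these values describe likeness alone.

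Proximal kinases and adaptors of the pathway were taken from a written list of 32 genes, of which 31 were tested. Of these 1 rose and 6 fell (22.6% called, against 8.94% of all genes), with a median log2 fold change of -0.07. Lyn and Fgr are Src family kinases of the kind that phosphorylates the Fcer1g motif. Lyn fell from 275 ± 8.29 to 241 ± 4.89 CPM (± SD, 4 libraries per group), or a log2 fold change of -0.19 (SE 0.041, adjusted p = 0.00428, edgeR), and Fgr fell with -0.32 (adjusted p = 0.0230, edgeR). Lcp2, which encodes the adaptor SLP-76, fell with -0.22 (adjusted p = 0.00144, edgeR), the exchange factor Vav2 with -0.44 (adjusted p = 6.42e-04, edgeR) and the kinase Tec with -0.17 (adjusted p = 0.0352, edgeR). Plcg2, the phospholipase that raises calcium behind Syk, rose from 143.0 ± 8.03 to 163 ± 1.63 CPM (± SD, 4 libraries per group), or a log2 fold change of 0.19 (SE 0.045, adjusted p = 0.00956, edgeR). Without Control replicate 3 or 4, or without So(d18:1) replicate 2 or 3, 4 of the list were called in place of 7.

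What is called the inhibitory arm here was a written list of 20 phosphatases, adaptors, receptors and other regulators, all tested. Of these 6 fell and none rose (30% called, against 8.94% of all genes), with a median log2 fold change of -0.08. Over all genes tested, 5.07% fell. With 1 library left out, 4 to 6 genes of the list were called. Sirpa, the receptor for the signal CD47 that restrains engulfment, fell from 1526 ± 11.0 to 1283 ± 8.19 CPM (± SD, 4 libraries per group), or a log2 fold change of -0.25 (SE 0.039, adjusted p = 2.11e-04, edgeR). The adaptors Dok2 and Sla both fell with -0.27 (adjusted p = 0.00452 and 0.00397, edgeR), Ubash3b, a phosphatase that acts on Syk, with -0.37 (adjusted p = 0.00121, edgeR), Inppl1, which encodes the phosphatase SHIP2, with -0.18 (adjusted p = 0.0241, edgeR) and the receptor Lilrb4a with -0.20 (adjusted p = 0.0457, edgeR). Inpp5d, the phosphatase that Fcgr2b recruits and a gene picked after its values were seen, had 539 ± 16.3 CPM without and 494 ± 20.6 CPM with So(d18:1) (± SD, 4 libraries per group), with a log2 fold change of -0.13 that did not pass (adjusted p = 0.0772, edgeR).

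Other receptors that pair with Fcer1g or use Syk went both ways. Of 14 tested genes, 3 rose and 4 fell (50% called, against 8.94% of all genes), and the list had a median log2 fold change of -0.04. Clec4e (Mincle) and Clec4d, lectin receptors that signal through Fcer1g, rose with log2 fold changes of 0.39 (SE 0.046, adjusted p = 8.24e-06, edgeR) and 0.25 (SE 0.056, adjusted p = 0.00959, edgeR). Clec4e went from 90.9 ± 4.33 to 119 ± 3.78 CPM and Clec4d from 509.6 ± 36.5 to 605 ± 43.7 CPM (± SD, 4 libraries per group). Trem2 and Clec5a, which signal through the sister chain Tyrobp, fell with -0.20 and -0.27 (adjusted p = 0.00871 and 0.0347, edgeR). The list also held the integrin subunit Itgam, which rose with 0.18 (adjusted p = 0.0119, edgeR), and Siglece, an inhibitory lectin that recruits phosphatases and is no partner of Fcer1g, which fell with -0.70 (adjusted p = 2.83e-05, edgeR). Without So(d18:1) replicate 2 the list had 4 calls in place of 7.

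Of the actin and engulfment genes 23 were tested, and 1 rose and 1 fell (8.70% called, near the 8.94% of all genes), with a median log2 fold change of -0.01. Without Control replicate 2 the calls were 4. Coro1a, an actin regulator, rose by 0.17 on the log2 scale (adjusted p = 0.00904, edgeR) and Marcks, a substrate of protein kinase C at the membrane, fell with -0.21 (adjusted p = 0.00239, edgeR). The phagocyte NADPH oxidase, which makes the oxidative burst, had 6 genes with a median of 0.04. Of these 2 rose and 4 did not pass (33.3% called, against 8.94% of all genes). Among the former was the cytosolic subunit Ncf4, from 222 ± 8.43 to 279 ± 12.0 CPM (± SD, 4 libraries per group; log2 fold change 0.33, SE 0.044, adjusted p = 4.04e-05, edgeR). Among 12 other Fc receptors and partners, 7 were tested, with 1 rise and 1 fall (28.6% called) and a median log2 fold change of -0.00. Fcrl1, an Fc receptor-like gene of B cells, fell from 8.70 ± 1.58 to 5.45 ± 0.634 CPM (± SD, 4 libraries per group), that is by 0.68 on the log2 scale (adjusted p = 0.00236, edgeR). Lgals3, a sugar-binding galectin known to bind IgE and no Fc receptor in the strict sense, rose with 0.41 (adjusted p = 1.25e-05, edgeR).

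**Figure D5:**
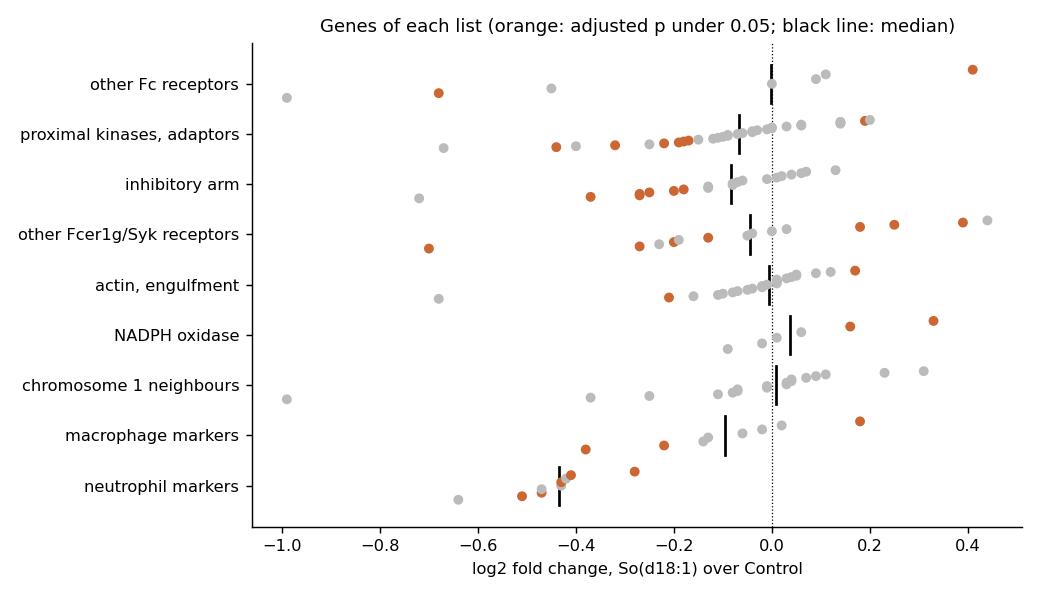
Log2 fold change (x axis) of each tested gene of 7 pathway and neighbour lists and 2 marker lists, in rows, with genes under an adjusted p of 0.05 in orange and the median of the list as a black line. The inhibitory arm has 6 called genes and the neutrophil markers have 5, all below 0, where 8.94% of all genes tested were called. The list of other Fcer1g or Syk receptors, which also holds Siglece, no partner of Fcer1g, has called genes on both sides.

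Neutrophils, monocytes and B cells also carry Fc gamma receptors, so their markers are given beside these results. Of 9 neutrophil markers, all tested, 5 fell and none rose (55.6% called, against 8.94% of all genes). All 9 had a log2 fold change below 0, with a median of -0.43. S100a8 went from 297 ± 40.0 to 208 ± 13.6 CPM and S100a9 from 496 ± 74.4 to 359 ± 21.9 CPM (± SD, 4 libraries per group; adjusted p = 0.00588 and 0.0276, edgeR). The summed level of the list ran from 2021 to 2699 CPM in the Control group and from 1599 to 1823 CPM in the So(d18:1) group, without overlap. Without Control replicate 4 or So(d18:1) replicate 2, 3 or 4 the calls were 2 and without So(d18:1) replicate 1 they were 3, whereas DESeq2 and limma-voom called 8 and the exact and likelihood ratio tests 9. The 5 monocyte markers summed to 1266 to 1573 CPM in the Control group and 1192 to 1311 CPM in the So(d18:1) group. Of these 5 markers 2, Ly6c2 and Cx3cr1, fell (40% called). Of the 5 B cell markers, which summed to 16.5 to 19.4 CPM in the Control group and 13.3 to 17.1 CPM in the So(d18:1) group, Pax5 fell by 1.26 on the log2 scale, from 1.13 to 0.468 CPM (adjusted p = 0.0298, edgeR). The call of Pax5, the only one of this list (20% called), was lost without Control replicate 1 or 3 and without So(d18:1) replicate 1, 2 or 3. The summed neutrophil markers were lower in the So(d18:1) group where Fcgr3 was higher, and the part of these cells in the values of the 7 genes was not tested. Of the 8 macrophage markers Itgam rose, Cd68 and Mertk fell with log2 fold changes of -0.22 and -0.38 (adjusted p = 0.00349 and 6.20e-06, edgeR) and 5 did not pass (37.5% called). The list summed to 30650 to 32994 CPM in the Control group and 26524 to 31476 CPM in the So(d18:1) group.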

How the data were processed

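RNA with a poly(A) tail from 4 Control and 4 So(d18:1) BMDM cultures was sequenced. After trimming (Trim Galore 0.6.7) and alignment to mm10 (HISAT2 2.2.1), the authors assigned reads to genes (featureCounts 2.0.1), per the labels and the study's methods, and deposited whole-number counts per Ensembl gene, not normalized. The strand setting and the annotation release are not given in the sources used here. The deposited table also holds a gene length in bases, a value that belongs to no sample. Symbols, positions and exon lengths came from GENCODE M21 (52081 of 55357 identifiers matched).

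The test was run on these counts with edgeR 4.0.16 in R 4.3.3: filterByExpr, TMM (factors 0.989 to 1.01), robust quasi-likelihood F test, Benjamini-Hochberg adjustment over 14514 genes and a threshold of 0.05. The SE is the absolute log2 fold change over the square root of F. Log2 CPM used a prior count of 2. The alternatives were other scalings and filters, DESeq2 1.42.0, limma-voom (limma 3.58.1), the likelihood ratio and exact tests of edgeR, the replicate number as a block, the thresholds of the study's methods (edgeR, unadjusted p of 0.05 and fold change of 1.5), and each library left out. The same fit was first tried on simulated counts with known changes.

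The 7 members and the written gene lists were chosen with earlier results of these data known. Genes named are the members, up to 6 called genes per list in order of p (or the gene with the smallest p), the 3 genes most correlated with the member of smallest p, and genes that overlap or share sequence with a member, except that some results under this rule are not reported here. Promoter windows are from RefSeq (GRCm38.p6), with 7 of 7 members matched. Protein sequences were not used here. Plots used Python 3.11.15 and matplotlib 3.10.9.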

Additional observations from a re-analysis of the deposited data

Results flagged for a closer look

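Among 100 groups of 4 libraries examined, 8 held a library far from the rest, where about 1 in 20 (5) would by chance. These groups come from the same libraries and some are built from the same members, so they are not independent and the 5 is only a rough guide. The values given are the distance of the far library to its closest neighbour divided by the whole range (the ratio of Dixon's test). In Control libraries, replicate 4 was low in log2 CPM for Fcgr1 (ratio 0.956, at 7.85 against at least 8.0 in the others) and Fcgr4 (0.830, at 6.31 against 6.45 to 6.48), and high in the ratio of Fcgr3 to Fcgr2b (0.873, at 13.8 against 12.2 to 12.4) and of the summed activating receptors to Fcgr2b (0.832, at 17.7 against 15.9 to 16.2). Control replicate 3 was high for Fcrl1 (0.830, at 3.48 against 2.96 to 3.05). In So(d18:1) libraries, replicate 4 was high for Fcgrt (0.887, at 8.48 against 8.27 to 8.29) and low for Fcrl1 (0.893, at 2.2 against 2.53 to 2.57). So(d18:1) replicate 1 was low for Tec (0.833, at 5.86 against 5.99 to 6.02).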

How the results depend on the processing

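Fcgr3 kept its direction and its call in all 18 alternatives run (0.358 to 0.423 with 1 library left out, 0.383 to 0.402 otherwise). Fcgr1, Fcgr2b, Fcer1g and Syk kept their direction and stayed uncalled in all 18. Fcgrt stayed called in the 10 others, with log2 fold changes of -0.227 to -0.153 with 1 library left out, where 5 of 8 fits lost the call on fewer samples. The sign of Fcgr4 reversed with DESeq2's size factors and Wald test (-0.001 each), upper quartile scaling (-0.011) and a minimum of 10 counts in every library (-0.005), and it ran from -0.036 to 0.051 with 1 library left out, within its SE of 0.056. With 1 library left out, 1 to 2 members were called, and by the thresholds of the study's methods 0. Of all genes, 1298 were called, 815 (without So(d18:1) replicate 2) to 1370 with 1 library left out, 564 by those thresholds and 3393 by an unadjusted p under 0.05. The lists of proximal kinases (4 to 9 calls), the inhibitory arm (4 to 6), other receptors (4 to 6), actin genes (2 to 4) and chromosome 1 neighbours (0 to 1) moved with 1 library left out. Actin calls also went to 4 with DESeq2, and the neighbours to 1 with the likelihood ratio and exact tests of edgeR.

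Whether the replicate numbers pair the libraries is not settled by these values. Deviations of same-numbered libraries correlated at -0.00351 to 0.1 and those of other pairs at -0.136 to 0.107. Of 8 libraries, 3 correlated best with their own number. With the replicate block 1784 genes were called, Fcgr3 had a log2 fold change of 0.395 and Fcgrt of -0.177, and 4 actin genes were called in place of 2.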
